A study of Mus musculus with 5 samples.

Results

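Basement membranes are thin sheets of extracellular matrix on which epithelia rest. The 10 genes described here encode the core of such a sheet and helpers of its collagen: the laminin chains Lama1, Lamb1 and Lamc1, the collagen IV chains Col4a1 and Col4a2, the linker Nid1, the proteoglycan Hspg2, the collagen-binding matrix protein Sparc, and the endoplasmic reticulum proteins P4ha2 and Serpinh1. They were chosen by gene symbol, with earlier results of these data known. All probe sets annotated with exactly 1 of these symbols were taken. This gave 21 probe sets of 34945 with 1 symbol, for 10 of 18193 genes.

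Laminin is a cross-shaped trimer of 1 alpha, 1 beta and 1 gamma chain, and the trimer of Lama1, Lamb1 and Lamc1 products is laminin-111, the main laminin of the early mouse embryo. Collagen IV forms a second network from trimers of the Col4a1 and Col4a2 products, and nidogen and perlecan connect both networks. In the blastocyst, primitive endoderm and its parietal descendants secrete most of this matrix. Stem cells themselves make it too, and differentiating aggregates of them lay it down beneath an outer endoderm layer.

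The study depleted Tet1, which oxidizes 5-methylcytosine in DNA, in mouse embryonic stem cells of established lines and measured total RNA on 5 arrays, 1 per group. J1 cells shared their dishes with mouse embryonic fibroblast feeders and received control siRNA or Tet1 siRNA, with harvest 4 days later. E14 cells grew without feeders, carried a lentiviral Scr shRNA (scramble), Tet1 shRNA3387 or Tet1 shRNA2863, and were selected with puromycin for 4 days. Line, feeders, delivery of the RNA and selection therefore differ together between J1 and E14, and the labels give no promoter for the hairpins and no clone or passage for either line. Values are log2 probe set summaries, and a difference is a depleted array minus the control array of its own line unless stated. No group has a replicate.

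Tet1 was lower on every array labelled as depleted in the 3 of its 4 probe sets that had signal. By its brightest probe set it was 5.82-fold lower in J1 with siRNA, 3.27-fold lower with shRNA3387 and 1.85-fold lower with shRNA2863. The stem cell markers were high on all arrays: over 22 such genes the mean log2 level was between 9.82 and 10.55. In J1 cells with Tet1 siRNA, 22 of these 22 were below the control, with a median difference of -0.49. Of all 13619 genes that passed the signal filter, 6865 were below it, with a median of -0.01. The transcription factors that define primitive endoderm were near the bottom of the scale, while its surface and uptake proteins were mixed. Gata4 read 3.18 to 3.48, Gata6 3.17 to 3.28 and Sox17 3.12 to 3.84 over the 5 arrays, where the filter for usable signal lay between 3.03 and 3.12. The endocytic adaptor Dab2 read 5.64 to 6.02, the endocytic receptor Lrp2 6.90 to 7.63 and Amn 5.55 to 6.02, and these 3 were named after their values were seen. Thbd, on the same list and also named after its values were seen, read 3.29 to 3.42. Foxa2, Pdgfra, Afp and Ttr, and the receptors Cubn, Pth1r and Pth2r, did not pass that filter. It asks for a level above the 40th percentile of an array on at least 1 array.

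Windows around the start sites of the 4 members that passed the test between the lines, described below, are shown first, because those of Col4a1 and Col4a2 lie on opposite strands and overlap. The sequences are RefSeq's, build GRCm38.p6, with 250 bases before and 50 after the annotated start. In the collagen pair, capitals mark the 78 bases that both windows contain, read from opposite strands. In Sparc and Serpinh1, capitals mark every CG dinucleotide, the substrate in which most mammalian DNA methylation occurs.
Col4a1, chr8:11312777-11313076, minus strand: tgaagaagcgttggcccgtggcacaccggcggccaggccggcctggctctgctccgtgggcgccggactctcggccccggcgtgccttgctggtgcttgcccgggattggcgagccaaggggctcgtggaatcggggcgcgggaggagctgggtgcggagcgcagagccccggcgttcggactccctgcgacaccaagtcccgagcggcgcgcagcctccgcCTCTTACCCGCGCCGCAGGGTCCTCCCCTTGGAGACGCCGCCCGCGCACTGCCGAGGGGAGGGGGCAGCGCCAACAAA
Col4a2, chr8:11312555-11312854, plus strand: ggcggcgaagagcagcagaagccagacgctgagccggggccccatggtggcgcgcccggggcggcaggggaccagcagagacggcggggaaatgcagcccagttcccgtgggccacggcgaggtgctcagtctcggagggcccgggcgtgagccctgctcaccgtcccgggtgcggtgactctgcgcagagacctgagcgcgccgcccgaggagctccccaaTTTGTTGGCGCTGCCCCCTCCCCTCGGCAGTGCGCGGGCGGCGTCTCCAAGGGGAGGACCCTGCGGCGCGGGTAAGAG
Sparc, chr11:55420031-55420330, minus strand: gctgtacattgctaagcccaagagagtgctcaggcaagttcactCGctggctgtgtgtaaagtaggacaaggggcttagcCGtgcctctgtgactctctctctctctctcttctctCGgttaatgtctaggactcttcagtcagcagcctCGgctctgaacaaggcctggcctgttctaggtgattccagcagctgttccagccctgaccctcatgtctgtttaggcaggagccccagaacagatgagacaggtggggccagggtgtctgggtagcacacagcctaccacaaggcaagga
Serpinh1, chr7:99353190-99353489, minus strand: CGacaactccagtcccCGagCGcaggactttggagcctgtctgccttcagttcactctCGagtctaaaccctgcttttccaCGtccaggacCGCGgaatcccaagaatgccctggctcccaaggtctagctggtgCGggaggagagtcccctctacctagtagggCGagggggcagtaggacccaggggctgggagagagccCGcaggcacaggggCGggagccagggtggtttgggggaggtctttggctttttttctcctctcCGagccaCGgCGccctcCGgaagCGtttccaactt

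The annotated starts of Col4a1 and Col4a2 are 21 bases apart on opposite strands, each lying within the bases downstream of the other, so the annotated 5′ ends overlap. The collagen windows are rich in CG, with 37 in Col4a1 and 33 in Col4a2, more than in 94.4% and 91.4% of the 32851 windows in the table. Serpinh1 has 16, and Sparc only 4, below the median of 7. So the 4 genes have similar differences between the lines, described below, but windows of unlike base composition. Among the other members, Hspg2 has 27 CG, P4ha2 26, Nid1 20 and Lamb1 18. Lama1 and Lamc1 have no window shown. The letters CCAAT, searched on both strands, occur in the windows of Lamb1, Col4a1, Col4a2 and Nid1 and in 37.4% of all windows. The letters GGGCGG, searched likewise, occur in 7 of the 8 member windows, all but that of Sparc, and in 35.7% of all windows. TATAAA was found in 0 of the 8 and in 13.6% of all. DNA methylation was not measured on these arrays, and a match of letters is only a description of the window.

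All 10 members passed the filter by their brightest probe set, which stands for the gene below. Their levels on each array are plotted first.

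**Figure D1:**
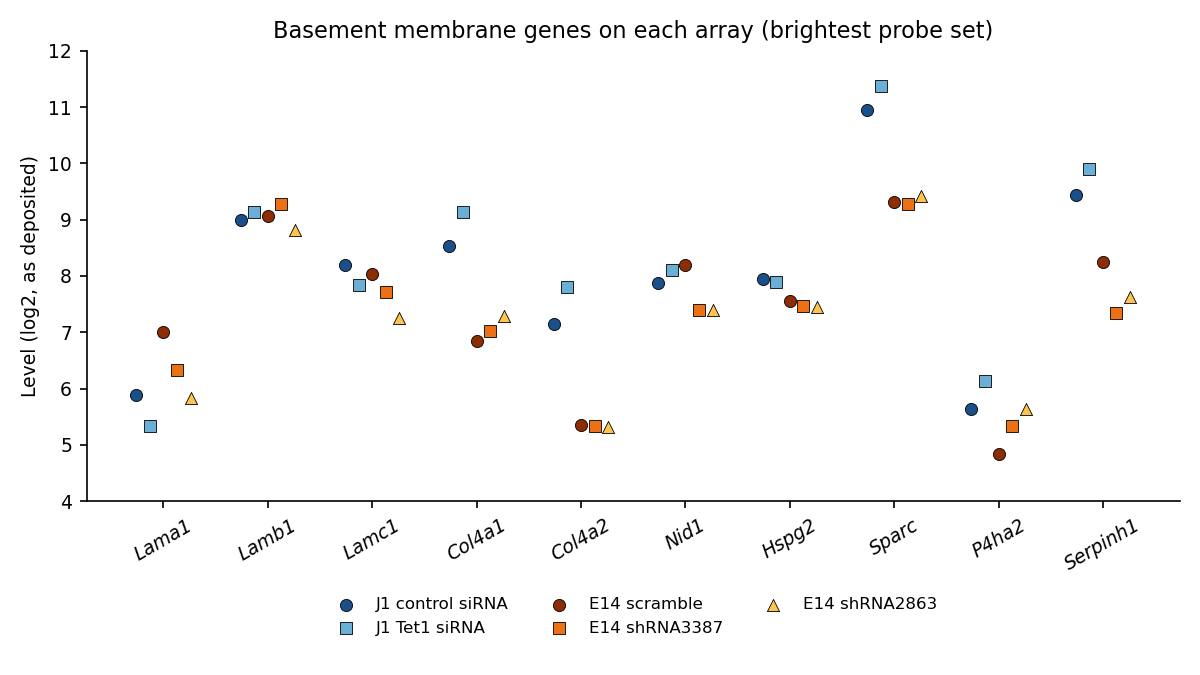
Log2 level (vertical axis, as deposited) of the brightest probe set of each member on the 5 arrays; each point is 1 array. Both J1 arrays lie above all 3 E14 arrays for Col4a1, Col4a2, Sparc and Serpinh1 and, by a smaller step, Hspg2, while Lama1 is highest with the scrambled hairpin.

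Collagen IV and its partners Sparc and Serpinh1 were lower on the E14 arrays than on the J1 arrays, by 3.62-fold to 4.56-fold. Only the J1 cultures held feeders, and the part of the feeders was not tested. The brightest probe sets of the 3 laminin chains gave no call between the lines. Col4a1 read 8.54 and 9.13 on the J1 arrays and 6.84, 7.03 and 7.29 on the E14 arrays, in the order scramble, shRNA3387 and shRNA2863. Col4a2 read 7.15 and 7.81 in J1 and 5.35, 5.34 and 5.32 in E14. The lines do not overlap for either chain, and the 3 E14 values of Col4a2 lie within 0.03 of each other. In limma with terms for line and depletion, Col4a1 differed by -1.85 ± 0.14 (E14 minus J1, SE; adjusted p = 0.0174 over 13619 genes) and Col4a2 by -2.19 ± 0.20 (adjusted p = 0.0199), which are 3.62-fold and 4.56-fold. The second Col4a1 probe set read 6.51 and 7.32 in J1 and 4.41, 4.94 and 4.72 in E14.

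Sparc, a secreted protein that binds collagen IV, read 10.95 and 11.38 in J1 and 9.32, 9.28 and 9.42 in E14. Serpinh1, also called Hsp47, is the chaperone that holds folded procollagen in the endoplasmic reticulum, and it read 9.43 and 9.90 in J1 and 8.24, 7.34 and 7.63 in E14. Again the lines do not overlap. Sparc differed by -1.86 ± 0.13 (adjusted p = 0.0170, limma) and Serpinh1 by -1.89 ± 0.34 (adjusted p = 0.0458), 3.63-fold and 3.71-fold. The second Sparc probe set also stood higher in J1, at 9.97 and 9.94 against 8.58, 8.64 and 8.67. The dimmest Sparc probe set stayed between 4.40 and 4.47 on the 5 arrays. The second Serpinh1 probe set, of a kind designed with possible cross-hybridization, read 7.90 and 8.03 in J1 and 6.65, 5.56 and 6.03 in E14.

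Of the 10 members, 4 were called lower in E14 and 0 higher, where 7.8% of all genes were called lower and 6.37% higher. Both J1 arrays lay above all 3 E14 arrays for 5 members, against 21.8% of all genes, and below them for 0, against 27.1%. The members were chosen with earlier results of these data known, so these shares are no independent comparison. The p-values rest on how far the 3 depletion differences disagree, with 2 residual degrees of freedom moderated by limma, and not on replicate arrays. Each line has 1 culture history, so they do not speak of other J1 or E14 cultures. With any 1 array left out, limma called 0 of the 13619 genes. The 4 members then had adjusted p from 0.0876 to 0.137, with estimates from -1.70 to -1.97 for Col4a1, -1.80 to -2.48 for Col4a2, -1.63 to -2.03 for Sparc and -1.19 to -2.42 for Serpinh1. Serpinh1 was close to the threshold, and with no filter on low levels it missed it (adjusted p = 0.0513, limma).

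The remaining helper, P4ha2, is the catalytic alpha subunit of a prolyl 4-hydroxylase that modifies collagen chains. It read 5.63 and 6.13 in J1 and 4.83, 5.33 and 5.63 in E14. The highest E14 value equals the lowest J1 value. The line difference of P4ha2 was -0.71 ± 0.14 and missed the threshold (adjusted p = 0.0522, limma). Other processing of the same 5 arrays gave P4ha2 an adjusted p from 0.0345, with a filter at the 60th percentile, to 0.246, with no Tet1 term in limma, and put it under the threshold in 4 settings.

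Among the laminins, Lama1, the alpha chain, was higher in the E14 scramble than in either J1 array. It read 5.88 and 5.34 in J1 and 7.0, 6.33 and 5.83 in E14, and the lowest E14 value lay just below the highest J1 value. Lama1 differed by 0.90 ± 0.21 between the lines (adjusted p = 0.0752, limma), and by 2.17-fold between the control arrays alone. After quantile normalization its adjusted p was 0.0449. Lama1 has 1 probe set.

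Lamb1, the beta chain, was at the same level in both lines by its brightest probe set, which read 8.99 and 9.13 in J1 and 9.07, 9.27 and 8.82 in E14. Its line difference was -0.01 ± 0.17 (adjusted p = 0.967, limma). A dimmer probe set also overlapped between the lines, at 7.39 and 7.82 against 7.60, 7.84 and 7.59. Another did not overlap: it read 5.88 and 6.27 in J1 and 4.18, 4.62 and 4.14 in E14. The dimmest, close to the filter, did not overlap either but was higher in E14. It read 3.34 and 3.35 in J1 and 3.80, 3.78 and 4.0 in E14. With every probe set fitted on its own, the non-overlapping ones differed by -1.81 and 0.51 (adjusted p = 0.0183 and 0.0491, limma). The probe sets of Lamb1 thus disagree on the line difference, also in direction.

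Lamc1, the gamma chain, read 8.20 and 7.84 in J1 and 8.03, 7.71 and 7.26 in E14, so the lines overlap. Its line difference was -0.28 ± 0.18 (adjusted p = 0.375, limma). The other Lamc1 probe set read 3.84 and 5.30 in J1 and 2.07, 2.05 and 2.06 in E14, below the filter on all 3 E14 arrays. Taken as the median over probe sets, Lamb1 and Lamc1 differed by -0.89 and -1.44 (adjusted p = 0.0415 and 0.0336), so the laminin result depends on which probe sets are read.

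The linkers gave no call between the lines. Nid1, which encodes nidogen-1 and binds the laminin gamma chain, read 7.88 and 8.10 in J1 and 8.19, 7.40 and 7.40 in E14. Its line difference was -0.27 ± 0.27 (adjusted p = 0.555, limma). Hspg2, which encodes perlecan, read 7.95 and 7.90 in J1 and 7.55, 7.46 and 7.45 in E14. The step in Hspg2 was 1.34-fold, with no overlap of the lines, and missed the threshold (-0.43 ± 0.09, adjusted p = 0.0617). Hspg2 was under the threshold in 3 other settings, with adjusted p of 0.0498 with a filter at the 60th percentile, 0.0384 in limma without a trend and 0.0380 with no Tet1 term. Without _s_at probe sets its difference was 0.12 (adjusted p = 0.673). Its other probe set read 7.30 and 7.16 in J1 and 7.70, 6.99 and 7.14 in E14, with overlap.

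**Figure D2:**
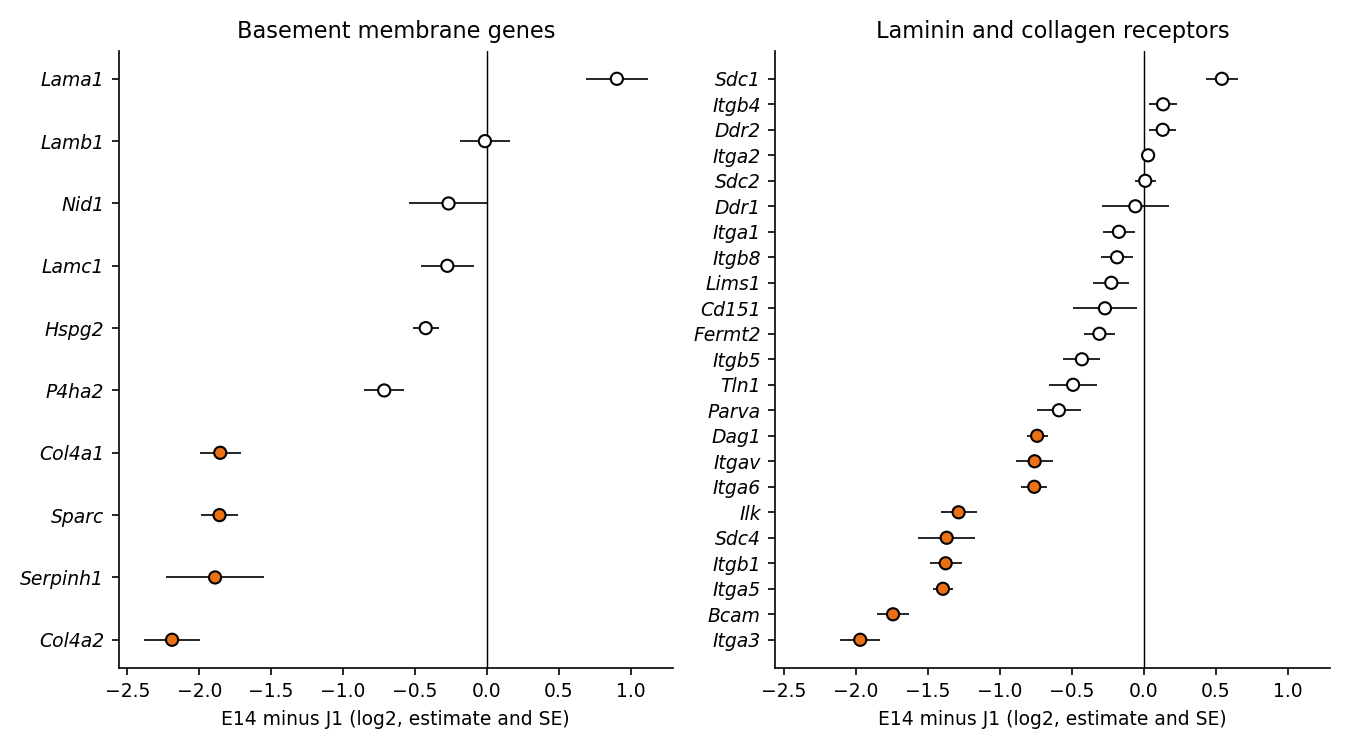
E14 minus J1 difference in log2 (horizontal axis; point, limma estimate; bar, SE) for the 10 members and for 23 kept receptor genes. Filled points have an adjusted p under 0.05: Col4a1, Col4a2, Sparc and Serpinh1 on the left, and 9 receptors on the right, all lower in E14.

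Between the control arrays alone, before any depletion, 5 members were at least 1.5-fold lower in E14 (13.4% of all genes were) and 1, Lama1, at least 1.5-fold higher (9.69%). Col4a2 was 3.48-fold lower, Col4a1 3.25-fold, Sparc 3.10-fold, Serpinh1 2.28-fold and P4ha2 1.74-fold. The median over the 10 members was -0.60, and 0.02 over all kept genes. Over all genes the split was 1320 higher and 1822 lower, which turned to 1746 higher and 1374 lower after quantile normalization. The member counts of 5 and 1 were the same under that scaling and under median centring.

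Several receptors for this matrix were lower in E14 too. Of 23 kept genes for laminin and collagen receptors and their adaptors, 9 were called lower in E14 and 0 higher (7.8% and 6.37% of all genes). The laminin-binding integrin chain Itga3 read 9.47 and 9.64 in J1 and 7.75, 7.47 and 7.49 in E14. Itgb1, the beta chain it pairs with, read 9.22 and 9.63 against 8.0, 8.18 and 8.09, and Bcam, a receptor for the laminin alpha-5 chain, 6.89 and 6.76 against 5.25, 5.02 and 4.86. All had adjusted p under the threshold (0.0170, 0.0181 and 0.0167, limma). The fibronectin receptor chain Itga5 was also lower (adjusted p = 0.0153). Itga3, Itgb1, Bcam and Itga5 were named for their large differences between the control arrays. The line test uses the same values, so their adjusted p is no separate support. The other genes called, listed after their values were seen, were Itga6, Itgav, Dag1, Sdc4 and Ilk. With 1 array left out these calls also end.

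Of 26 kept genes that modify or export collagen, 3 were called lower in E14 (P4hb, Plod2 and Colgalt1) and 1 higher (Sec13). Over all genes, 7.8% were called lower and 6.37% higher. P4hb, the shared subunit of the prolyl hydroxylase that holds the P4ha2 product, read 11.64 and 11.48 in J1 and 10.51, 10.62 and 10.81 in E14 (adjusted p = 0.0299, limma). Plod2, a lysyl hydroxylase, read 8.27 and 7.81 against 6.97, 7.08 and 6.88 (adjusted p = 0.0383). General chaperones of the endoplasmic reticulum went both ways, with 5 of 18 called lower and 2 higher. Pdia3 differed by -0.86 ± 0.09 (adjusted p = 0.0223, limma), while Pdia4 read 6.79 and 6.95 against 8.16, 7.82 and 7.94.

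The median of 17 other basement membrane genes kept was -0.15 between the control arrays. Of the 17, 3 were called lower in E14 (7.8% of all genes) and 0 higher (6.37%). These 3 were the integrin ligand Npnt, with 5.00 and 5.74 in J1 against 3.90, 4.68 and 4.75 in E14, Tinagl1, and the matrix glycoprotein Thbs1, with 7.77 and 8.10 against 6.19, 6.23 and 6.83. Nid2, the relative of Nid1, read 9.27 and 8.95 against 9.18, 9.24 and 9.39, and the alpha-5 laminin chain Lama5 7.68 and 7.06 against 7.52, 7.82 and 7.74; both were named after their values were seen. Lama2, Lama4, Col4a3, Col4a4 and Col4a6 did not pass the filter. Among 19 kept proteases and inhibitors, 4 were called lower and 1 higher (7.8% and 6.37% of all genes). The serine protease Htra1 read 8.80 and 9.52 in J1 and 7.18, 7.26 and 7.82 in E14, and the inhibitor Timp2 7.12 and 7.63 against 5.90, 5.82 and 5.70 (adjusted p = 0.0269 and 0.0265, limma).

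**Figure D3:**
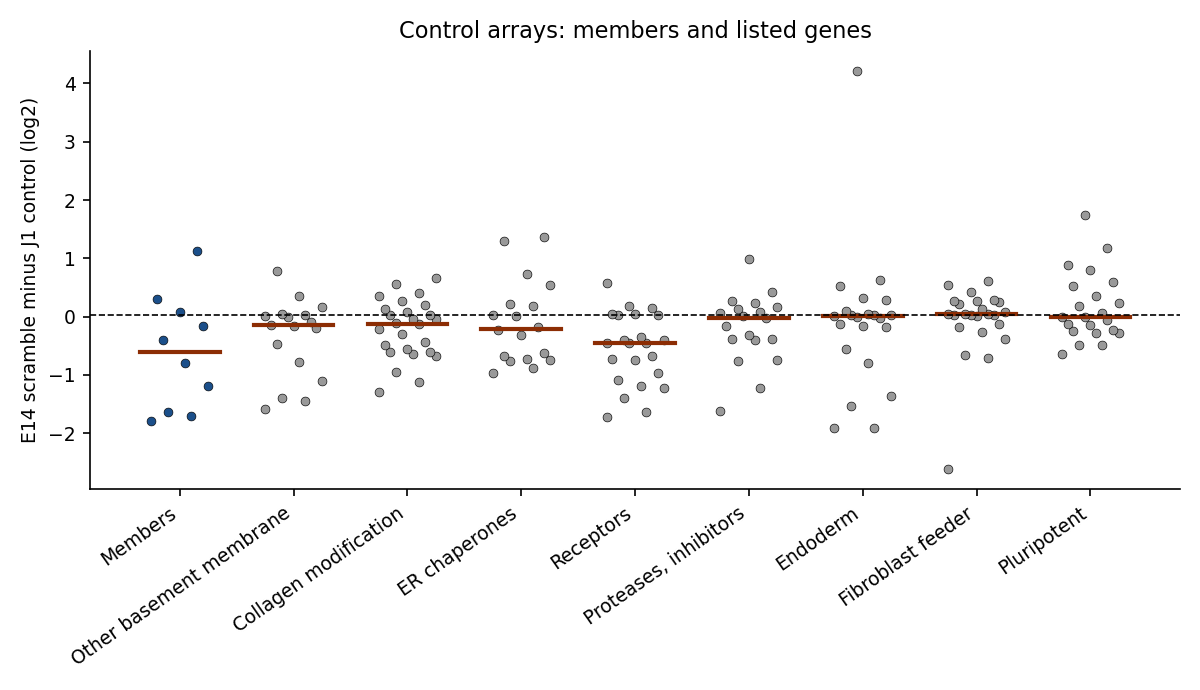
Log2 difference between the control arrays (E14 scramble minus J1 control, vertical axis) for the members and for the kept genes of 8 lists; each point is 1 gene, solid lines are list medians and the dashed line is the median of all kept genes at 0.02. The members and the receptors have the lowest medians, at -0.60 and -0.46.

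Feeder fibroblasts also make collagen IV, Sparc and Serpinh1, and only the J1 cultures held them. The median of 24 kept fibroblast markers was 0.04 between the control arrays. Of the 24, 2 were called lower in E14 (7.8% of all genes) and 0 higher (6.37%). One of the 2 was the collagen I chain Col1a2, which read 6.24 and 5.95 in J1 and 3.62, 3.59 and 3.61 in E14 (adjusted p = 0.0129, limma). The other, named after its values were seen, was Col6a3 at 3.49 and 3.55 against 3.10 to 3.12. The other collagen I chain, Col1a1, read 4.39 and 3.89 against 4.61, 3.30 and 3.89. The summed linear signal of the 24 markers was 3734 and 3824 in J1 and 4363, 3238 and 4138 in E14, so the ranges overlap. Fn1, Vim and Tagln, named after their values were seen, made up most of each sum. With the scramble, in cells without feeders, they read 10.27, 10.19 and 10.12, each above its J1 control value. The sums therefore do not separate feeder RNA from stem cell RNA, and their overlap does not show equal feeder RNA. Postn, Dcn and Fap did not pass the filter. In bulk RNA, more cells of a type and more RNA per cell cannot be told apart, and the part of the feeders in the line differences was not tested.

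The median of 22 kept endoderm markers was 0.00 between the control arrays. Of the 22, 2 were called lower in E14 (7.8% of all genes) and 1 higher (6.37%). Those lower were Apoe, named after its values were seen, and Krt19 (adjusted p = 0.0269 and 0.0442, limma). The gene called higher was Spink1 (adjusted p = 0.0269, limma). The largest differences were in Spink1, 4.04 in J1 control and 8.26 with the scrambled hairpin, and in the simple epithelial keratins Krt8 and Krt18, both -1.92. The summed signal of the 22 markers was 9377 and 12814 in J1 and 3657, 2633 and 4510 in E14. Krt8 (11.84 and 12.25) and Krt18 (11.75 and 12.46) made up most of the J1 sums. Krt8 and Krt18 had adjusted p of 0.0667 and 0.0600 between the lines in limma. These keratins are made by trophectoderm and other simple epithelia too, and their part in the member differences was not tested.

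With Tet1 siRNA in J1 cells, both collagen IV chains were at least 1.5-fold higher than with control siRNA, and no other member passed that size either way. Col4a1 went from 8.54 to 9.13 (1.51-fold) and Col4a2 from 7.15 to 7.81 (1.58-fold). These 2 of 10 compare with 2.91% of all genes at least 1.5-fold higher, and 0 of 10 with 6.09% at least 1.5-fold lower. The second Col4a1 probe set differed by 0.81. Col4a1 lay just inside the 1.5-fold size, a log2 difference of 0.585, and after median centring it fell outside, leaving 1 member.

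The other helpers shifted the same way by less: P4ha2 by 0.50, Serpinh1 by 0.47 and Sparc by 0.43 in their brightest probe sets. The second Serpinh1 and Sparc probe sets differed by 0.13 and -0.03. The median over the members was 0.33, and -0.01 over all kept genes. Of the laminin chains, Lama1 differed by -0.54, Lamc1 by -0.36 and Lamb1 by 0.14. Hspg2 differed by -0.05 and Nid1 by 0.22.

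A pair of dim probe sets stood apart in this comparison. One, for Nid1, had a level of 2.39 in the J1 control and 4.36 after Tet1 siRNA, and 2.36 to 2.40 in E14. The second Lamc1 probe set read 3.84 and 5.30, opposite in direction to the brightest one. Both were under the filter on the E14 arrays, and the Nid1 one also in J1 control, so its 3.92-fold difference starts from background. The remaining Nid1 probe set, at 2.86 to 2.94, passed the filter on no array. These pairs show that the direction of Lamc1 and the size of Nid1 in J1 depend on the probe set.

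The lists of surrounding genes did not share 1 direction in J1 with siRNA. Of 26 collagen modification genes, 21 were below the control by any amount, where 6865 of all 13619 kept genes were. Their median was -0.15, and P4hb differed by -0.16. The ER chaperones had a median of 0.05 and the receptors 0.06. Fibroblast markers had a median of 0.01 with 2 of 24 at least 1.5-fold higher, Col5a1 (0.64) and Twist2 (0.87), both named after their values were seen, while Col1a2 differed by -0.29. Of 22 endoderm markers 3 were at least 1.5-fold higher and 1 lower, and their median was 0.10. Over all genes these shares were 2.91% and 6.09%. Cited1 differed by 2.12, Krt18 by 0.71 and Sox18, named after its values were seen, by 0.62. The summed signal of the endoderm list was 9377 with control and 12814 with Tet1 siRNA. Most of that sum was Krt8 and Krt18, which went from 11.84 to 12.25 and from 11.75 to 12.46. The part of the endoderm list in the collagen IV difference was not tested. Gata4, Gata6 and Sox17 differed by 0.28, 0.06 and 0.38 at levels close to the filter.

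**Figure D4:**
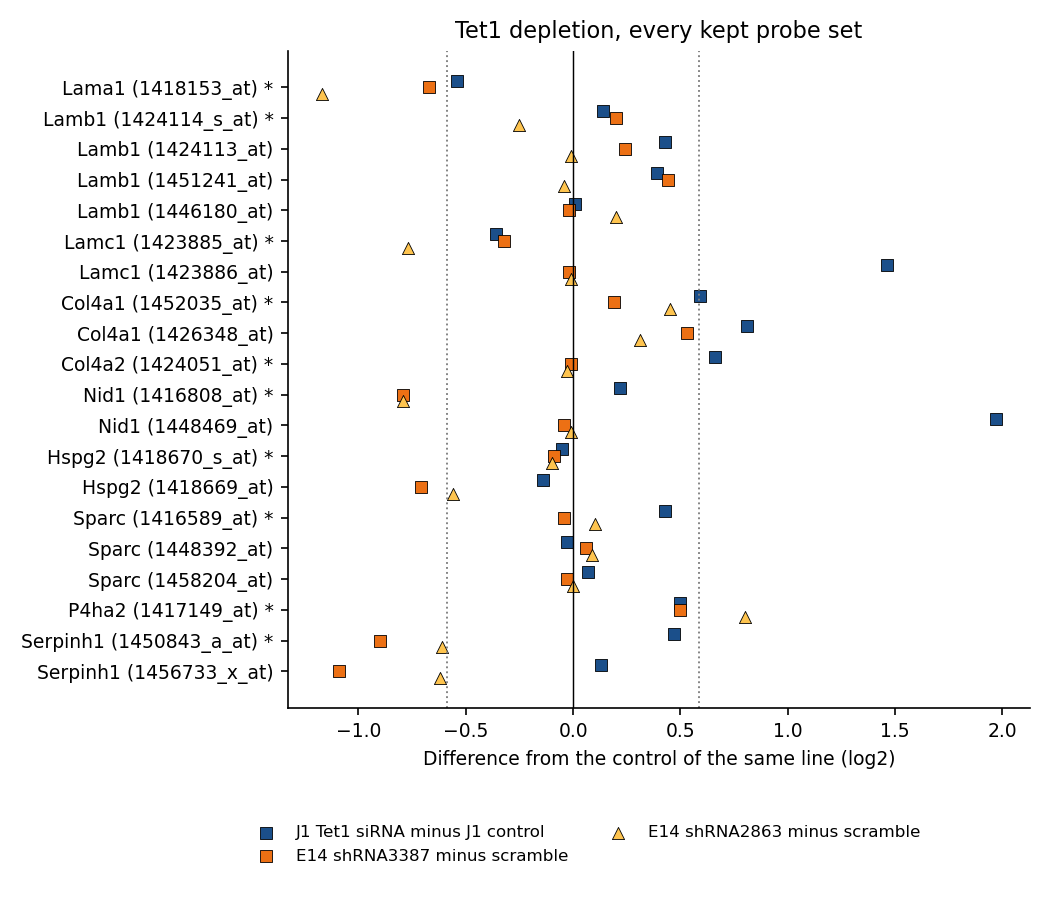
Log2 difference of each depleted array from the control array of its line (horizontal axis) for the 20 kept probe sets of the members; each point is 1 array against 1 array, asterisks mark the brightest probe set of a gene and dotted lines mark 1.5-fold. Collagen IV lies to the right with J1 siRNA, while Lama1, Lamc1, Nid1 and Serpinh1 lie to the left with the E14 hairpins in their brightest probe sets.

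In E14 cells the hairpins were accompanied by lower Serpinh1, Nid1 and Lama1, and collagen IV was not among the genes that passed 1.5-fold. Both hairpins are compared with the same scramble array, so they are not independent of each other. With shRNA3387, 3 of 10 members were at least 1.5-fold lower (3.36% of all genes) and 0 higher (5.39%). With shRNA2863, 4 of 10 were at least 1.5-fold lower (3.26%) and 1 higher (3.63%). Over all genes, the split with shRNA3387 was 734 higher and 457 lower, and 535 higher and 604 lower after quantile normalization. The member counts of 3 lower and 4 lower were the same after quantile normalization, and after median centring both were 3.

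Serpinh1 read 8.24 with the scramble, 7.34 with shRNA3387 and 7.63 with shRNA2863, 1.87-fold and 1.53-fold lower. Its second probe set read 6.65, 5.56 and 6.03 on the same arrays, so both probe sets gave the same order. Nid1 read 8.19 with the scramble and 7.40 with each hairpin, 1.73-fold lower in both. Lama1 read 7.0, 6.33 and 5.83, 1.59-fold and 2.25-fold lower. Lamc1 read 8.03, 7.71 and 7.26, and passed 1.5-fold with shRNA2863 alone, at 1.71-fold. Tet1 itself was the less reduced with shRNA2863. Compared with shRNA3387, Lama1 and Lamc1 were lower there, Serpinh1 was higher and Nid1 was equal. A relation to the Tet1 level was not tested.

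For Hspg2 the probe sets disagreed in size. The brightest differed by -0.09 and -0.10 with shRNA3387 and shRNA2863, and the other, which lacks the suffix of probe sets that can match several transcripts, by -0.71 and -0.56. P4ha2 read 4.83 with the scramble, 5.33 with shRNA3387 and 5.63 with shRNA2863, 1.41-fold and 1.74-fold higher. Col4a1 differed by 0.19 and 0.45, and by 0.53 and 0.31 in its second probe set. Col4a2 differed by -0.01 and -0.03, and Sparc by -0.04 and 0.10. Lamb1 differed by 0.20 and -0.25. So the collagen IV chains stayed within 1.5-fold of the scramble with both hairpins.

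Limma over the mean of both hairpins called 0 of 13619 genes (0%), with 1500 at an unadjusted p under 0.05. Nid1 differed by -0.79 ± 0.08 (SE; adjusted p = 0.352 and unadjusted p = 0.00838 from limma) and Serpinh1 by -0.76 ± 0.19 (adjusted p = 0.450). The only residual behind these errors is the hairpin pair, with 1 degree of freedom, and limma moderates it toward the spread of other genes. Nid1 read 7.40 with both hairpins, so its error and unadjusted p rest on that moderation. The member median was -0.07 with shRNA3387 and -0.17 with shRNA2863, beside -0.02 and -0.01 over all kept genes.

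A few other genes of collagen processing were at least 1.5-fold lower with a hairpin. P3h4, a partner in collagen lysyl hydroxylation, read 7.20 with the scramble and 6.47 and 6.63 with shRNA3387 and shRNA2863. Crtap, a member of the prolyl 3-hydroxylation complex, read 9.12, 8.46 and 8.92, and Fkbp14, a prolyl isomerase, 4.92, 4.67 and 4.20. In all, 2 of 26 such genes were at least 1.5-fold lower with shRNA3387 (3.36% of all genes) and 1 with shRNA2863 (3.26%). The ER chaperones had medians of 0.00 and 0.14, and 0 of 18 passed 1.5-fold either way with either hairpin. Among the receptors 1 of 23 passed it, Ddr1, which differed by 0.76 with shRNA3387.

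Other basement membrane genes had medians of 0.06 and 0.03 with the hairpins, and 0 of 17 were at least 1.5-fold lower. At least 1.5-fold higher were 3 with shRNA3387 (Lamb2, Smoc1 and Npnt, where 5.39% of all genes were) and 2 with shRNA2863 (Npnt and Thbs1, where 3.63% were). Npnt read 3.90 with the scramble and 4.68 and 4.75 with the hairpins. Fibroblast markers, in cultures without feeders, had medians of -0.05 and -0.01. Of the 24, 4 were at least 1.5-fold lower and 2 higher with shRNA3387 (3.36% and 5.39% of all genes). With shRNA2863, 3 were lower and 3 higher (3.26% and 3.63%). Col1a1 differed by -1.31 and -0.72 and Tgfbi by -0.52 and -1.02, while Cd44 differed by 1.38 and 1.41. Of the endoderm markers, Spink1 differed by -2.24 and -3.36 and the activin antagonist Fst by 1.0 and 1.03. Krt8 differed by -0.71 and 0.67 with the 2 hairpins, and the part of these genes in the member differences was not tested.

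Over all 3 depletions, limma called 0 of 13619 genes (0%), with 936 at an unadjusted p under 0.05. The members with the smallest unadjusted p were P4ha2 (0.59 ± 0.14 SE, unadjusted p = 0.0149) and Lama1 (-0.76 ± 0.21, unadjusted p = 0.0269), each with an adjusted p of 0.70 from limma. P4ha2 differed by 0.50 in J1 with siRNA, 0.50 with shRNA3387 and 0.80 with shRNA2863. Lama1 differed by -0.54, -0.67 and -1.17 in the same order. Both have 1 probe set, and both hairpin values use 1 scramble array. Col4a1 differed by 0.44 ± 0.14 (unadjusted p = 0.0411, adjusted p = 0.718). The whole list of 10 had a median of -0.01, the same as all kept genes.

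The effects of depletion on Serpinh1 and Nid1 pointed in opposite directions in the lines. Serpinh1 differed by 0.47 in J1 and by -0.90 and -0.61 in E14, and Nid1 by 0.22 and by -0.79 with each hairpin. The differences of effects, E14 minus J1, were -1.23 ± 0.29 and -1.01 ± 0.13 (SE; adjusted p = 0.349 and 0.332, limma), and limma called 0 genes (0%) in this comparison, with 1888 at an unadjusted p under 0.05. For Col4a2 it was -0.68 ± 0.13 (adjusted p = 0.344).

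Genes whose levels followed the mean of the members most closely were found by Euclidean distance between log2 profiles centred on their mean over the 5 arrays. The member mean lay at 0.42 and 0.62 in J1 and at -0.20, -0.40 and -0.44 in E14. The 6 nearest genes were Anxa7 (distance 0.0577), Galnt1, Sdhaf2, Kifbp, Cited2 and Hspa5 (0.117), the main chaperone of the endoplasmic reticulum. Anxa7 read 10.57 and 10.73 in J1 and 9.98, 9.73 and 9.69 in E14. No member was as near to the mean as these, with distances from 0.511 for Hspg2 to 1.99 for Lama1, so the mean profile describes none of the 10 closely. Over the 3 depletion differences alone, whose member means were 0.21, -0.19 and -0.24, the nearest were Cyb5r3 (distance 0.0146), Tef, Ociad1, Lgr5, Praf2 and Slc9a3.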

How the data were processed

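The deposited values are log2 probe set summaries on Affymetrix arrays, 1 per sample. The log2 scale was inferred from their range, 1.38 to 14.12. How the authors summarised, background-corrected and normalized the scans is not given in the sources used here, so a difference in scaling between arrays cannot be checked against the scans. Per the labels' protocols, total RNA was labelled with biotin by a One Cycle kit. Array medians were between 3.45 and 3.52.

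Probe sets were named from the supplied platform annotation (0 symbols changed on matching to RefSeq). The brightest probe set by mean stood for a gene. Of 18193 genes, 13619 exceeded the 40th percentile on at least 1 array. Limma 3.58.1 (R 4.3.3) used a mean-variance trend, two-sided tests and Benjamini-Hochberg adjustment over all kept genes at 0.05. One fit had terms for line and depletion. A second, of 4 means, gave the E14 effect and the difference of effects. It was tested on simulated data. For a single pair of arrays no test exists, and differences of at least 1.5-fold were counted.

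The members, the 8 lists (209 genes, 171 kept) and the tests were chosen with earlier results of these data known. Named genes were the members, Tet1, up to 4 per list by mean depletion difference, up to 4 by control difference, and 6 by profile. Others are marked. Genes named by a difference were picked on values that the tests also use, so their adjusted p is no separate support. Alternatives were other scalings, filters, probe set rules, models and thresholds, and leaving out each array. Probe sets were also restricted to those without _s_at or _x_at, a choice made after seeing the data.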

Additional observations from a re-analysis of the deposited data

Results flagged for a closer look

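In 3 members every depleted array of one line differed from its control in the opposite direction to every depleted array of the other line. The share of all genes with such opposite signs was not counted, and both hairpins are compared with 1 scramble array. The count is therefore a description only. Col4a2 differed by 0.66 in J1 with siRNA and by -0.01 and -0.03 with shRNA3387 and shRNA2863. Its difference of effects, E14 minus J1, was -0.68. The E14 values of Col4a2 are so close to 0 that their sign changed with the scaling. Nid1 had a difference of effects of -1.01 and Serpinh1 of -1.23, and both probe sets of Serpinh1 had the same signs. Limma adjusted p for the 3 ran from 0.332 to 0.349, with 1 residual degree of freedom, so none passed the test.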

How the results depend on the processing

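No paired analysis was possible because each group holds 1 array. The limma counts of 0 genes for depletion, for the E14 effect and for the difference of effects stayed 0 under every alternative run. The line difference, with 1930 genes, gave 4238 when every probe set was fitted on its own and 0 to 0 with 1 array left out, where 1 residual degree of freedom remains. Between the control arrays, the 5 members at least 1.5-fold lower in E14 became 7 with the median over probe sets. At least 1.5-fold higher in J1 with siRNA were 2 members, 3 with the median over probe sets, 1 after median centring and 0 at 2-fold. The 3 lower with shRNA3387 became 2 with the median over probe sets, 4 without _s_at or _x_at probe sets and 0 at 2-fold. The 4 lower with shRNA2863 became 3 after median centring, 2 with the median over probe sets and 1 at 2-fold, where the 1 higher became 0.

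Gene values that changed sign between these settings were never past the threshold. For the line difference these were Lamb1 (0.03 after quantile normalization and without _s_at or _x_at probe sets, -0.11 to 0.11 with 1 array left out), Hspg2 (0.12 without _s_at probe sets) and Nid1 (-0.70 to 0.31 with 1 array left out). For depletion, the median over probe sets gave 0.08 for Lamc1 and 0.60 for Nid1, and the model with no line term -0.09 for Col4a2 and -0.11 for Sparc. With 1 array left out, depletion values ran from -0.05 to 0.17 for Lamb1, -0.02 to 0.66 for Col4a2, -0.79 to 0.22 for Nid1 and -0.75 to 0.47 for Serpinh1, the upper ends of the last 3 without the scramble. For the E14 effect, signs changed for Sparc (-0.01, quantile), Lamb1 (0.02, median centring; 0.16, median over probe sets; 0.12, without _s_at) and Col4a2 (0.02, median centring). For the difference of effects they changed for Hspg2 (0.04, median centring) and Sparc (0.11, median over probe sets). The causes were not tested. Signal over background limits the dim second probe sets of Lamc1 and Nid1.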
